A study of Homo sapiens with 9 samples.

Results

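RAB GTPases are small membrane switches that direct vesicle traffic, and the genes that encode them were followed in human lung cancer cells exposed to the compounds RSGL and BSGL. The members were the protein-coding genes on assembled chromosomes whose symbol is RAB followed by a number and at most 1 letter from A to D. This gave 62 of the 45754 genes in the deposited table, and 45 of the 62 reached 1 FPKM (a fragment count corrected for gene length and library size) in at least 3 of the 9 libraries, as did 12775 genes in all. RNA was sequenced after 24 h with 10 µM RSGL, after 24 h with 10 µM BSGL, or after 24 h with 0.1% DMSO, the solvent, as the control, with 3 libraries in each of the 3 groups. All libraries carry the cell line label H441, a line from a lung adenocarcinoma. Their genotype label reads A549 for the RSGL libraries and H460 for the BSGL and control libraries, which are other lung cancer lines. A difference in cell line and the effect of RSGL therefore cannot be told apart by the labels. The labels give RSGL and BSGL as code names only, and their treatment protocol speaks of 1 treated replicate, so the 3 libraries of a group need not be separate cultures and each p-value then reflects how far these libraries vary, which may be technical.

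A RAB protein alternates between a GDP-bound form, held soluble by GDP dissociation inhibitors, and a GTP-bound form that sits on a membrane through lipid tails added by geranylgeranyl transferase. Exchange factors load GTP, GTPase-activating proteins end the signal, and the active form recruits effectors such as tethers, motors and fusion machinery. Each compartment carries its own RABs, so that the set of RABs is often read as a map of membrane identity.

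The libraries held 16720414 to 18738947 fragments in genes, and 1 fragment of a gene of 2 kb was worth 0.0249 to 0.0280 FPKM. Genes that H441 cells are known for were nearly silent: the lung lineage factor NKX2-1 reached at most 0.0596 FPKM and the surfactant protein SFTPB at most 0.0390 FPKM. Of 9 such genes, 1, the lipid transporter ABCA3, passed the filter, and it rose by 0.79 under RSGL (limma, adjusted p = 6.75e-06). The summed level of the 9 was 9.45 to 11.1 FPKM in RSGL libraries, 6.25 to 6.57 FPKM in BSGL libraries and 6.34 to 7.47 FPKM in control libraries. Epithelial markers were present, with 4 of 5 passing and EPCAM below 1 FPKM. Of the 4, 1 was called higher and 3 lower under RSGL, beside 27.2% of all genes tested higher and 27.6% lower. The summed level of the 5 was 740.9 to 778.5 FPKM in RSGL libraries, 1056 to 1105 FPKM in BSGL libraries and 1065 to 1093 FPKM in control libraries. Endothelial and melanocyte markers did not pass, at 0 of 5 and 0 of 4. Of the fibroblast markers 3 of 7 passed and 2 of them were called lower under RSGL, with a summed level of 7.90 to 8.16 FPKM in RSGL libraries, 10.3 to 11.1 FPKM in BSGL libraries and 9.93 to 11.3 FPKM in control libraries. Of the blood cell markers 1 of 6 passed, CD14, which was also called lower, and their sum was 0.366 to 0.984, 1.501 to 2.07 and 2.07 to 2.32 FPKM in the same order. The part of these differences in the results below was not tested, and in bulk RNA fewer cells of a type and less RNA per cell cannot be told apart.

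Under RSGL, RAB genes changed in both directions, with the largest rises on the log2(FPKM + 1) scale in RAB3B and RAB29 and the largest falls in RAB37 and RAB26. By the ratio of mean FPKM the rise of RAB39B, a low gene, was larger, at 3.74-fold. RAB39B, RAB6B and RAB37 passed the filter only through the libraries where each is high, and all of them are among the calls below. On that log2 scale, 14 of the 45 tested RAB genes rose relative to control, 11 fell and 20 did not pass the test (limma, Benjamini-Hochberg adjusted p under 0.05 over all genes tested). That is 55.6% of the RAB genes, beside 54.8% of all genes tested (27.2% higher and 27.6% lower), so the share of RAB genes that changed was near the background. With a filter of 1 FPKM in all 9 libraries, 42 RAB genes were tested, of which 12 rose and 10 fell. The median log2 difference of the 45 RAB genes was 0.05, beside -0.00085 for all genes tested. Their median absolute difference was 0.18, beside 0.21. Under BSGL 0 of the 45 passed in either direction, beside 0.0861% of all genes (0.047% higher and 0.0391% lower), with 3 RAB genes at an unadjusted p under 0.05, or 3 of 45 beside 6.71% of all genes. RSGL set against BSGL gave 14 RAB genes higher and 11 lower, beside 54% of all genes called (26.5% higher and 27.5% lower), and this comparison uses the same RSGL libraries as the one with control.

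**Figure D1:**
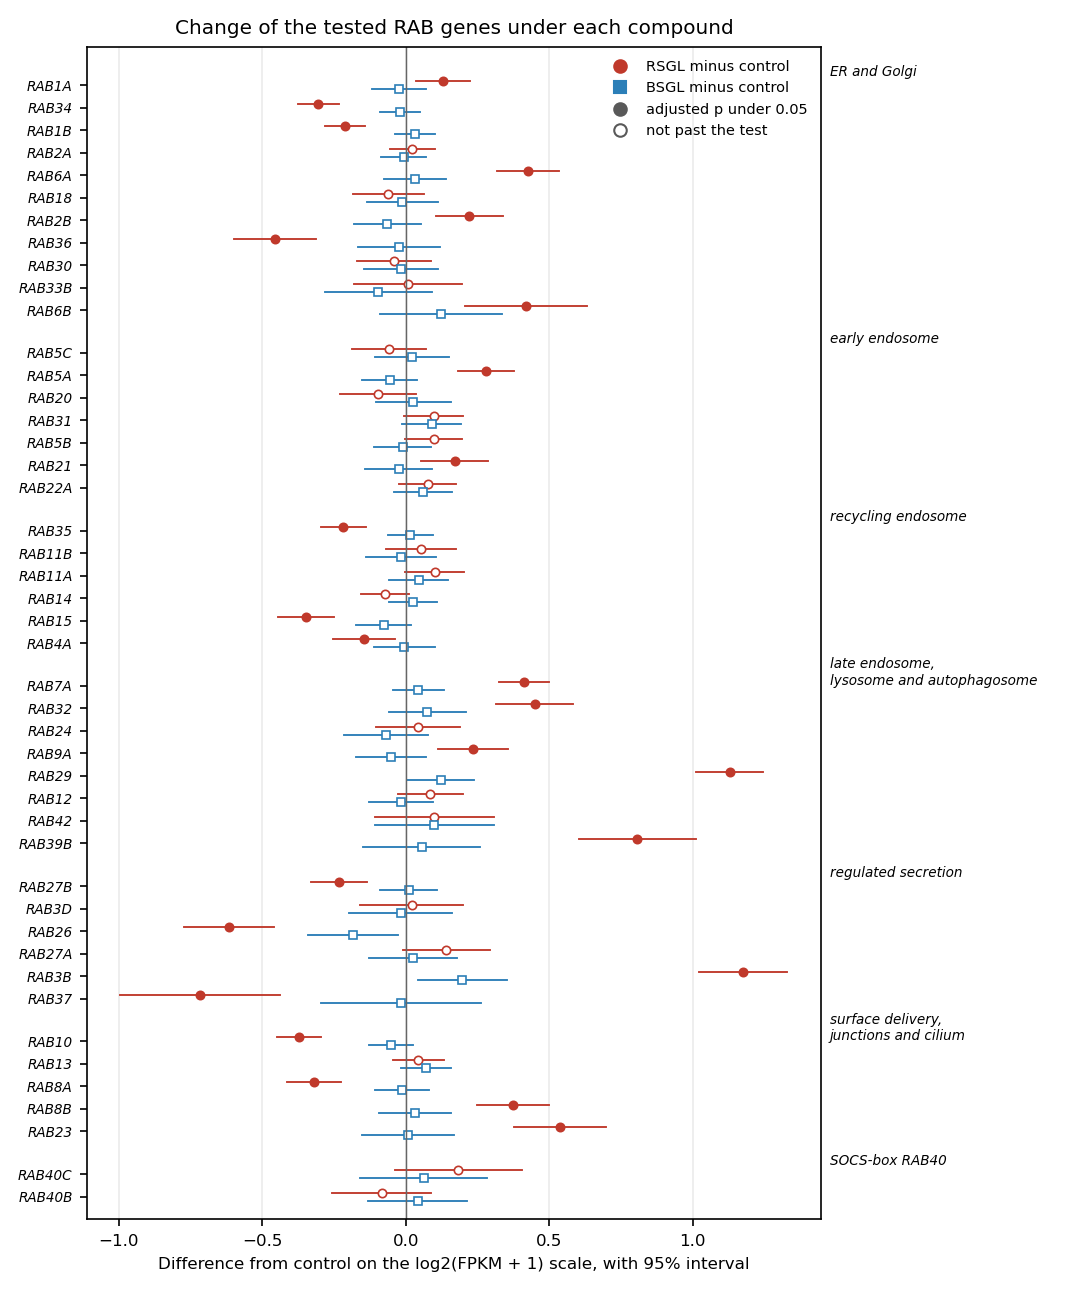
Log2 difference (FPKM + 1) of each of the 45 tested RAB genes for RSGL minus control and BSGL minus control, with the 95% interval of the model as a bar and filled symbols for genes that passed the test (n = 3 libraries a group). RSGL differences run from -0.72 for RAB37 to 1.18 for RAB3B, while all BSGL differences lie between -0.18 and 0.20 and have open symbols.

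Promoter sequences are shown for 5 RAB genes: RAB3B and RAB29, which rose most on the log2(FPKM + 1) scale, RAB7A, the rising gene of highest level, and RAB5A and RAB21, whose windows hold a motif known from lysosomal genes. Each is the 250 bases before a RefSeq start (GRCh38.p14), read on the gene's own strand, and the start lies 0 to 64 bases inside that of the deposited table. Capitals mark matches, on either strand, to GGGCGG (the GC box, bound by SP1), TGACTCA (the AP-1 site), TCACGTGA (the core of the CLEAR element, bound by TFEB and its relatives) or TGACGTCA (the cAMP response element).
RAB3B, chr1:51990701-51990950, minus strand: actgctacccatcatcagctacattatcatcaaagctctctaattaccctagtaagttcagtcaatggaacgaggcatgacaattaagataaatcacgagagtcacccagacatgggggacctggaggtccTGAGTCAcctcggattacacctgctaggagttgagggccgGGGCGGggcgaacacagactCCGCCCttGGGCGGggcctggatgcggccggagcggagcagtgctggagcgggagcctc
RAB29, chr1:205775483-205775732, minus strand: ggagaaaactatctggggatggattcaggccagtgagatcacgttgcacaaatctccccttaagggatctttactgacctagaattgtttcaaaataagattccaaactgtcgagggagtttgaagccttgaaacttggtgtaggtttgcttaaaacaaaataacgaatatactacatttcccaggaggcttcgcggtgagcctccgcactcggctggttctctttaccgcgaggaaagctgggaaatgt
RAB7A, chr3:128725933-128726182, plus strand: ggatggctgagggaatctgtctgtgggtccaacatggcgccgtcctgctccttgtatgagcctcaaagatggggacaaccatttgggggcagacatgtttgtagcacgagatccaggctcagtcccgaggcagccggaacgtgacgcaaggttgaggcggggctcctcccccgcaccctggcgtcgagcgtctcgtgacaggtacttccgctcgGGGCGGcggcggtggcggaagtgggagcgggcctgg
RAB5A, chr3:19946847-19947096, plus strand: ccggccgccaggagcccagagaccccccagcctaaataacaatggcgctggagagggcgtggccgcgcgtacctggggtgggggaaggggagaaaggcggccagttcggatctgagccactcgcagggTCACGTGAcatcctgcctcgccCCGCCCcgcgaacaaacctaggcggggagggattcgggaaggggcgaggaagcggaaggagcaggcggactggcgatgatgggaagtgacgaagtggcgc
RAB21, chr12:71754613-71754862, plus strand: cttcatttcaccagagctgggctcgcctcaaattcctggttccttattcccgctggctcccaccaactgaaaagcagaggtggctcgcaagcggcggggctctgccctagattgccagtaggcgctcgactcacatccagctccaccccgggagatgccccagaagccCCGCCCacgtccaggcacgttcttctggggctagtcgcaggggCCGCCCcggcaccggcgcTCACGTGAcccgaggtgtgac
The RAB3B window holds an AP-1 match 119 bases before the start and 3 GC boxes, the RAB29 window holds none of the 4 motifs, and the RAB7A window holds 1 GC box. The CLEAR core lies 122 bases before the start in RAB5A and 21 bases before it in RAB21.

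Windows were found for 49 of the 62 RAB genes, some with several starts, giving 70 windows. A GC box stood in 71.4% of them, beside 42.6% of all 35116 windows, and in 76.9% of the 52 windows of tested RAB genes, beside 64.7% of the 13131 windows of tested coding genes. The AP-1 site stood in 5 RAB windows, those of RAB13, RAB27B, RAB34, RAB3B and RAB5B, or 7.14%, beside 4.20% of all windows, and in 9.62% of the windows of tested RAB genes, beside 2.89% of those of tested coding genes. Of these 5 genes, RAB3B rose, RAB27B and RAB34 fell, and RAB13 and RAB5B did not pass. The CLEAR core stood in 2.86% of RAB windows, beside 0.854% of all windows, and in 3.85% of those of tested RAB genes, beside 1.58% of those of tested coding genes. The cAMP response element stood in 1 RAB window, that of RAB25, or 1.43%, beside 1.65% of all windows, and in 0 of the 52 windows of tested RAB genes, beside 2.58% of those of tested coding genes. The motifs were chosen with the results known, and a match is a run of letters, not a bound site.

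Levels of RAB genes spanned a wide range in every group. In control, 7 genes averaged over 50 FPKM, 16 between 10 and 50 FPKM, and 22 of the tested genes under 10 FPKM. The 5 highest in control were RAB5C, RAB10, RAB7A, RAB1A and RAB13. FPKM corrects for gene length, so these levels can be set side by side. Summed over all 62 genes, the level was 1033 ± 2.58 FPKM under RSGL, 1016 ± 9.60 FPKM under BSGL and 1010 ± 26.3 FPKM in control (SD, n = 3 each).

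**Figure D2:**
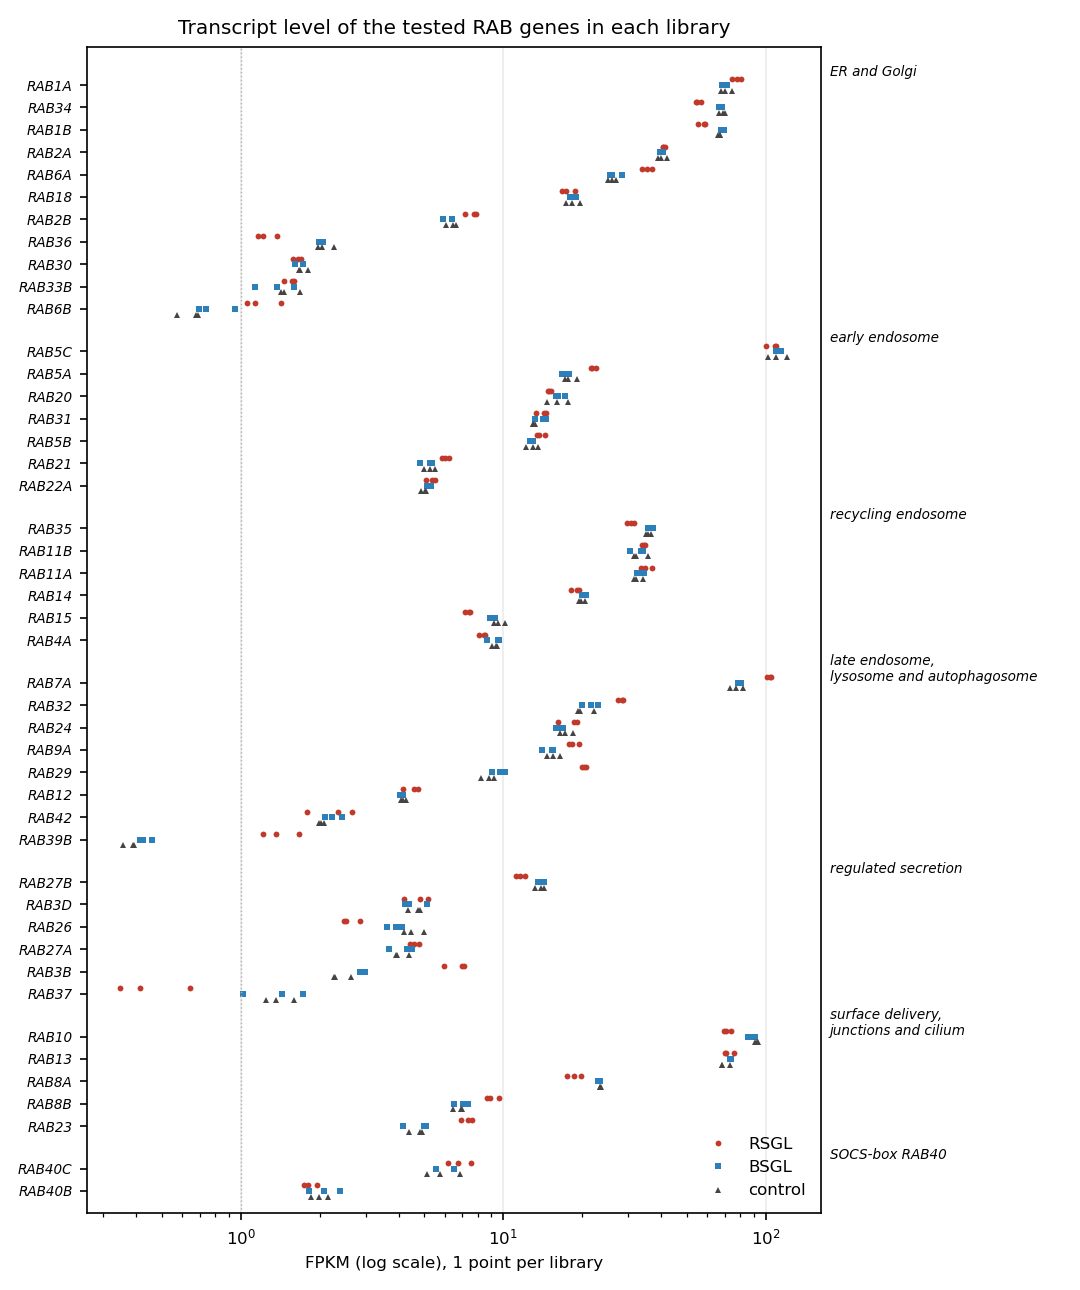
FPKM on a log axis of the 45 tested RAB genes, ordered by the compartment group to which each was assigned, with 1 point per library for RSGL, BSGL and control. RAB5C, RAB7A and RAB10 stand near the top in every library, and the RSGL points of RAB3B, RAB29 and RAB39B lie above all other points of those genes.

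Among the 12 RABs of late endosomes, lysosomes and autophagosomes, 8 were tested, and 5 rose under RSGL while 0 fell and 3 did not pass, beside 27.2% of all genes higher and 27.6% lower, with a median log2 difference of 0.32. One of the 5, RAB39B, was tested only through its RSGL libraries. RAB29, with the largest log2 difference of the group at 1.13, also acts at the Golgi, so these values depend in part on where it was placed. The summed level of the 12 was 195.6, 198.2 and 199.7 FPKM in RSGL libraries, 152.2, 150.3 and 148.4 FPKM in BSGL libraries and 143.0, 146.5 and 152.5 FPKM in control libraries. The RSGL libraries lay above all others, with the largest differences in FPKM from control in RAB7A, RAB29 and RAB32.

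RAB7A (gene 7879, chr3:128726136-128814798, plus strand), which drives the fusion of late endosomes and autophagosomes with lysosomes, had 103.9, 101.6 and 104.7 FPKM under RSGL, 80.5, 78.6 and 80.5 FPKM under BSGL and 73.4, 77.2 and 81.9 FPKM in control. The RSGL libraries did not overlap with the others, while the BSGL libraries lay within the range of control. Its log2 difference was 0.41 ± 0.0391 for RSGL minus control (SE, limma, adjusted p = 1.35e-05) and 0.37 for RSGL minus BSGL (adjusted p = 3.28e-05).

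RAB29 (gene 8934, chr1:205767986-205775487, minus strand), a RAB of the Golgi and of stressed lysosomes that recruits the kinase LRRK2, had 20.4, 20.7 and 20.0 FPKM under RSGL, 9.75, 10.1 and 9.04 FPKM under BSGL and 9.27, 8.24 and 8.84 FPKM in control. Every RSGL library was above every other library, a 2.32-fold higher mean than control. The log2 difference was 1.13 ± 0.0516 for RSGL minus control (SE, limma, adjusted p = 8.66e-08) and 1.01 for RSGL minus BSGL (adjusted p = 2.04e-07). RAB32, which works on lysosome-related organelles and mitochondria, had 28.3, 28.6 and 27.5 FPKM under RSGL, 21.7, 23.0 and 19.9 FPKM under BSGL and 19.3, 19.7 and 22.1 FPKM in control. Its RSGL libraries again lay above the rest, with a log2 difference from control of 0.45 ± 0.0602 (SE, limma, adjusted p = 0.000146). Its close relative RAB38, known from melanosomes, stayed at 0.159 FPKM or less in every library.

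RAB39B (gene 116442, chrX:155258234-155264589, minus strand), a RAB linked to autophagy and best known from neurons, had 1.67, 1.37 and 1.22 FPKM under RSGL, 0.426, 0.459 and 0.413 FPKM under BSGL and 0.355, 0.392 and 0.389 FPKM in control. It passed the filter through its RSGL libraries alone, so its rise of 0.81 on the log2 scale (limma, adjusted p = 4.57e-05), a 3.74-fold ratio of mean FPKM, is a value of a gene that had to be high there to be tested. RAB9A, which returns cargo from late endosomes to the Golgi, averaged 18.5 ± 0.878 FPKM under RSGL, 15.0 ± 0.768 FPKM under BSGL and 15.6 ± 0.871 FPKM in control (SD, n = 3 each) and rose by 0.23 (limma, adjusted p = 0.00444). RAB12, RAB24 and RAB42 did not pass.

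The 9 RABs of regulated secretion held both the largest rise and the largest fall on the log2(FPKM + 1) scale. Of 6 tested, 1 rose, 3 fell and 2 did not pass under RSGL, beside 54.8% of all genes called (27.2% higher and 27.6% lower). Their summed level was 31.7 ± 0.929 FPKM under RSGL, 31.3 ± 1.35 FPKM under BSGL and 31.5 ± 0.656 FPKM in control (SD, n = 3 each).

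RAB3B (gene 5865, chr1:51907956-51990764, minus strand), which docks secretory granules and synaptic vesicles, had 7.09, 6.99 and 5.97 FPKM under RSGL, 2.84, 2.99 and 2.85 FPKM under BSGL and 2.29, 2.28 and 2.63 FPKM in control. The 3 groups did not overlap, with RSGL highest and control lowest. RSGL minus control was 1.18 ± 0.0688 on the log2 scale (SE, limma, adjusted p = 4.47e-07), a 2.79-fold ratio of mean FPKM. BSGL minus control was 0.20, with a 95% interval of 0.04 to 0.35 and a limma adjusted p of 0.602, and so did not pass.

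RAB37 (gene 326624, chr17:74671117-74747335, plus strand), a RAB of secretory granules in mast cells and other secretory cells, had 0.643, 0.415 and 0.349 FPKM under RSGL, 1.02, 1.72 and 1.44 FPKM under BSGL and 1.25, 1.36 and 1.60 FPKM in control. The RSGL libraries lay below all others. The log2 difference from control was -0.72 ± 0.124 (SE, limma, adjusted p = 0.000805), on 100 fragments over the 3 RSGL libraries and 307 over those of control. RAB37 passed the filter through its BSGL and control libraries alone.

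RAB26, a granule and synaptic vesicle RAB, had 2.47, 2.52 and 2.86 FPKM under RSGL, 3.62, 3.89 and 4.13 FPKM under BSGL and 4.99, 4.45 and 4.20 FPKM in control. The 3 groups lay in that order without overlap. RSGL minus control was -0.62 ± 0.0701 on the log2 scale (SE, limma, adjusted p = 4.86e-05), and BSGL minus control was -0.18, with a limma adjusted p of 0.644.

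RAB27B and RAB27A, which bring lysosome-related organelles and exosomes to the cell surface, gave 1 fall and 1 value that did not pass. RAB27B fell, with 11.6 ± 0.476 FPKM under RSGL, 13.9 ± 0.339 FPKM under BSGL and 13.8 ± 0.565 FPKM in control (SD, n = 3 each; limma adjusted p = 0.00134). RAB27A averaged 4.59, 4.17 and 4.07 FPKM in the same order and did not pass for RSGL against control (log2 difference 0.14, limma adjusted p = 0.104). RAB3D, an exocrine granule RAB, did not pass, at 4.73 ± 0.510 FPKM under RSGL, 4.57 ± 0.474 FPKM under BSGL and 4.63 ± 0.246 FPKM in control. Of 5 neuroendocrine markers, which belong to cells rich in such granules, 2 passed the filter, CHGB and SYP. Of these 2, 1 was called higher under RSGL, beside 27.2% of all genes. The summed level of the 5 markers was 10.3 to 11.05 FPKM under RSGL, 8.42 to 9.79 FPKM under BSGL and 8.92 to 9.58 FPKM in control. Their part in the secretory RAB values was not tested.

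**Figure D3:**
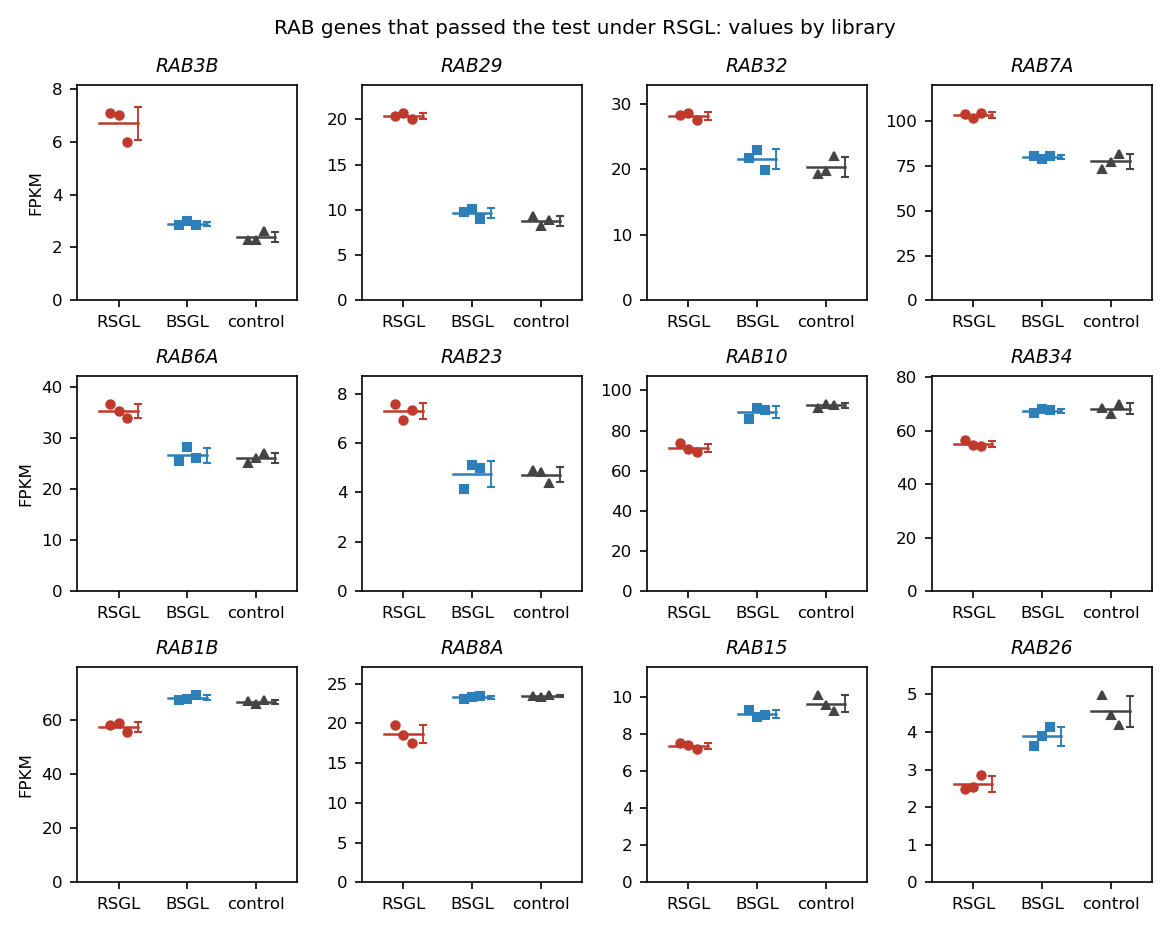
FPKM in each library of 12 RAB genes (RAB3B, RAB29, RAB32, RAB7A, RAB6A, RAB23, RAB10, RAB34, RAB1B, RAB8A, RAB15 and RAB26) in RSGL, BSGL and control, with the mean as a line and the SD as a bar (n = 3). In the first 6 genes the RSGL libraries lie above the control libraries and in the last 6 below them, without overlap.

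The 8 RABs of recycling endosomes included 6 that were tested, and 0 rose, 3 fell and 3 did not pass under RSGL. That stands beside 27.2% of all genes higher and 27.6% lower, or 54.8% called. The median log2 difference of the 6 was -0.11. The summed level of the 8 was 134.5 ± 1.62 FPKM under RSGL, 141.1 ± 2.40 FPKM under BSGL and 140.4 ± 2.05 FPKM in control (SD, n = 3 each). RAB15, which sorts receptors for recycling, had 7.51, 7.41 and 7.17 FPKM under RSGL, 9.32, 8.93 and 8.999 FPKM under BSGL and 10.1, 9.59 and 9.22 FPKM in control. RAB35, which works in fast recycling at the plasma membrane and in cytokinesis, averaged 30.6 ± 0.935 FPKM under RSGL, 36.2 ± 0.855 FPKM under BSGL and 35.8 ± 0.833 FPKM in control. Both fell relative to control, by 0.35 for RAB15 (limma, adjusted p = 8.79e-05) and by 0.22 for RAB35 (limma, adjusted p = 0.000513).

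RAB4A, of the fast recycling route, also fell, by 0.14 (limma, adjusted p = 0.0268), but its call was lost without control replicate 1 or 3 or RSGL replicate 1, at adjusted p of 0.0722, 0.0768 and 0.0830. RAB11A and RAB11B, which mark the slow recycling compartment, did not pass. RAB11A averaged 35.0 ± 1.71 FPKM under RSGL, 33.6 ± 1.04 FPKM under BSGL and 32.5 ± 1.40 FPKM in control, and RAB11B 34.3 ± 0.384, 32.7 ± 1.93 and 33.1 ± 2.26 FPKM in the same order. RAB25, their epithelial relative, stayed at 0.0938 FPKM or less in every library.

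Of the 8 early endosome RABs, 7 were tested, and 2 rose, 0 fell and 5 did not pass under RSGL. That stands beside 54.8% of all genes called (27.2% higher and 27.6% lower). RAB5A, which fuses early endosomes, had 22.5, 21.7 and 21.8 FPKM under RSGL, 16.8, 17.8 and 17.1 FPKM under BSGL and 17.2, 19.0 and 17.7 FPKM in control. Its RSGL libraries lay above all others, with a log2 difference from control of 0.28 ± 0.0429 (SE, limma, adjusted p = 0.00036). RAB21, which carries integrins into early endosomes, rose by 0.17 (limma, adjusted p = 0.0183), and lost its call without control replicate 2 or RSGL replicate 1 (adjusted p of 0.0707 and 0.0598) and when libraries were scaled to a common sum (0.0792).

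RAB5C, the most abundant RAB in control, did not pass, with 100.5, 109.8 and 108.2 FPKM under RSGL, 112.7, 114.0 and 109.9 FPKM under BSGL and 109.1, 102.1 and 121.1 FPKM in control. The groups overlapped, and the 95% interval of RSGL minus control ran from -0.19 to 0.07 on the log2 scale. RAB5B, RAB20, RAB22A and RAB31, which act in endocytosis and early endosome sorting, did not pass either, with log2 differences of RSGL minus control of 0.10, -0.10, 0.08 and 0.10.

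Among the 16 RABs of the ER and Golgi, 11 were tested, and 4 rose, 3 fell and 4 did not pass under RSGL, beside 27.2% of all genes higher and 27.6% lower, with a median log2 difference of 0.01. RAB6A, which moves vesicles within and out of the Golgi, had 36.7, 35.3 and 33.9 FPKM under RSGL, 25.6, 28.3 and 26.1 FPKM under BSGL and 25.1, 26.1 and 27.0 FPKM in control. The RSGL libraries lay above all others, with a log2 difference from control of 0.43 ± 0.0480 (SE, limma, adjusted p = 4.57e-05). RAB6C, a near copy of RAB6A whose reads counting could share, was at 0.0178 FPKM or less in every library.

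RAB6B, the form best known from neurons, had 1.14, 1.43 and 1.06 FPKM under RSGL, 0.737, 0.954 and 0.691 FPKM under BSGL and 0.676, 0.690 and 0.573 FPKM in control. It reached 1 FPKM in its RSGL libraries alone, which is how it passed the filter, and its log2 difference from control was 0.42 (limma, adjusted p = 0.00403). RAB2B, which acts between ER and Golgi, averaged 7.604 ± 0.372 FPKM under RSGL, 6.06 ± 0.273 FPKM under BSGL and 6.38 ± 0.303 FPKM in control and rose by 0.22 (limma, adjusted p = 0.00496). Its abundant paralog RAB2A, at 40.9, 40.0 and 40.3 FPKM in the same order, did not pass.

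RAB34, which positions lysosomes from the Golgi and helps to form cilia, had 56.5, 54.6 and 54.5 FPKM under RSGL, 66.5, 68.0 and 67.7 FPKM under BSGL and 68.5, 66.3 and 70.2 FPKM in control. Its RSGL libraries lay below all others, and it fell by 0.30 relative to control (limma, adjusted p = 2.41e-05). RAB36, its close relative, had 1.38, 1.163 and 1.22 FPKM under RSGL, 2.06, 2.06 and 1.99 FPKM under BSGL and 2.26, 1.97 and 2.04 FPKM in control, and fell by 0.46 (limma, adjusted p = 0.000203). RAB18, RAB30 and RAB33B did not pass.

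Of the 6 RABs of surface delivery, junctions and the cilium, 5 were tested, and 2 rose, 2 fell and 1 did not pass under RSGL, beside 54.8% of all genes called. Their summed level was 179.3 ± 2.25 FPKM under RSGL, 198.4 ± 3.16 FPKM under BSGL and 198.1 ± 3.25 FPKM in control (SD, n = 3 each). RAB10 (gene 10890, chr2:26033860-26137454, plus strand), which delivers cargo to the basolateral surface and carries GLUT4 vesicles in fat cells, had 73.6, 70.7 and 69.4 FPKM under RSGL, 85.8, 91.4 and 90.4 FPKM under BSGL and 91.2, 93.3 and 92.8 FPKM in control. All RSGL libraries lay below the rest, with a log2 difference from control of -0.37 ± 0.0344 (SE, limma, adjusted p = 1.12e-05).

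RAB23, a regulator of Hedgehog signalling at the cilium, had 7.59, 6.94 and 7.34 FPKM under RSGL, 4.15, 5.10 and 5.01 FPKM under BSGL and 4.93, 4.84 and 4.37 FPKM in control. It rose by 0.54 ± 0.0719 relative to control (SE, limma, adjusted p = 0.000144), without overlap between RSGL and the other groups. RAB13, a tight junction RAB and one of the 5 most abundant in control, did not pass, at 72.1 ± 3.20 FPKM under RSGL, 73.4 ± 0.536 FPKM under BSGL and 69.9 ± 2.68 FPKM in control. In the RAB40 group, whose members carry a SOCS box and act in ubiquitin ligases, RAB40B and RAB40C were tested and did not pass.

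In 2 pairs of close paralogs, 1 gene rose and the other fell under RSGL. RAB1A and RAB1B both carry vesicles from the ER to the Golgi. RAB1A had 74.7, 77.6 and 80.5 FPKM under RSGL, 71.1, 69.6 and 68.2 FPKM under BSGL and 67.9, 70.1 and 74.6 FPKM in control, and RAB1B had 58.1, 58.7 and 55.3 FPKM under RSGL, 67.4, 67.7 and 69.2 FPKM under BSGL and 66.7, 65.8 and 67.0 FPKM in control. RAB1B fell by 0.21 (limma, adjusted p = 0.000288). RAB1A rose by 0.13 (limma, adjusted p = 0.0241), a call that was lost without control replicate 1 or 2 or RSGL replicate 2 or 3, at adjusted p of 0.0910, 0.0684, 0.0575 and 0.0829. The share of RAB1A in their summed FPKM was 57.5% ± 1.59 under RSGL, 50.6% ± 0.865 under BSGL and 51.6% ± 1.13 in control (SD, n = 3 each).

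RAB8A and RAB8B, both of surface delivery and the cilium, moved apart. RAB8A had 19.8, 18.6 and 17.5 FPKM under RSGL, 23.0, 23.3 and 23.5 FPKM under BSGL and 23.4, 23.4 and 23.6 FPKM in control, and RAB8B had 9.63, 8.71 and 8.93 FPKM under RSGL, 7.04, 7.35 and 6.48 FPKM under BSGL and 6.45, 6.999 and 6.91 FPKM in control. RAB8A fell by 0.32 (limma, adjusted p = 0.000124) and RAB8B rose by 0.37 (limma, adjusted p = 0.000309). RAB8B made up 32.8% ± 0.946 of the pair under RSGL, 23.0% ± 1.21 under BSGL and 22.4% ± 0.762 in control (SD, n = 3 each).

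In the RAB3 family, RAB3B held 54.2% ± 4.97 of the summed FPKM under RSGL, 36.8% ± 1.27 under BSGL and 31.6% ± 2.88 in control, so that RAB3B and not RAB3D was the most abundant form under RSGL. RAB27A held 28.3% ± 0.109 of the RAB27 pair under RSGL, 23.0% ± 1.77 under BSGL and 22.7% ± 1.85 in control, and RAB5A 15.5% ± 0.769, 12.1% ± 0.255 and 12.7% ± 1.26 of the RAB5 family in the same order. The RAB11 pair was close to even in every group, with RAB11A at 50.4% ± 1.47 under RSGL, 50.7% ± 1.98 under BSGL and 49.6% ± 2.55 in control. These shares are descriptions, with SD over 3 libraries, and carry no test of their own.

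**Figure D4:**
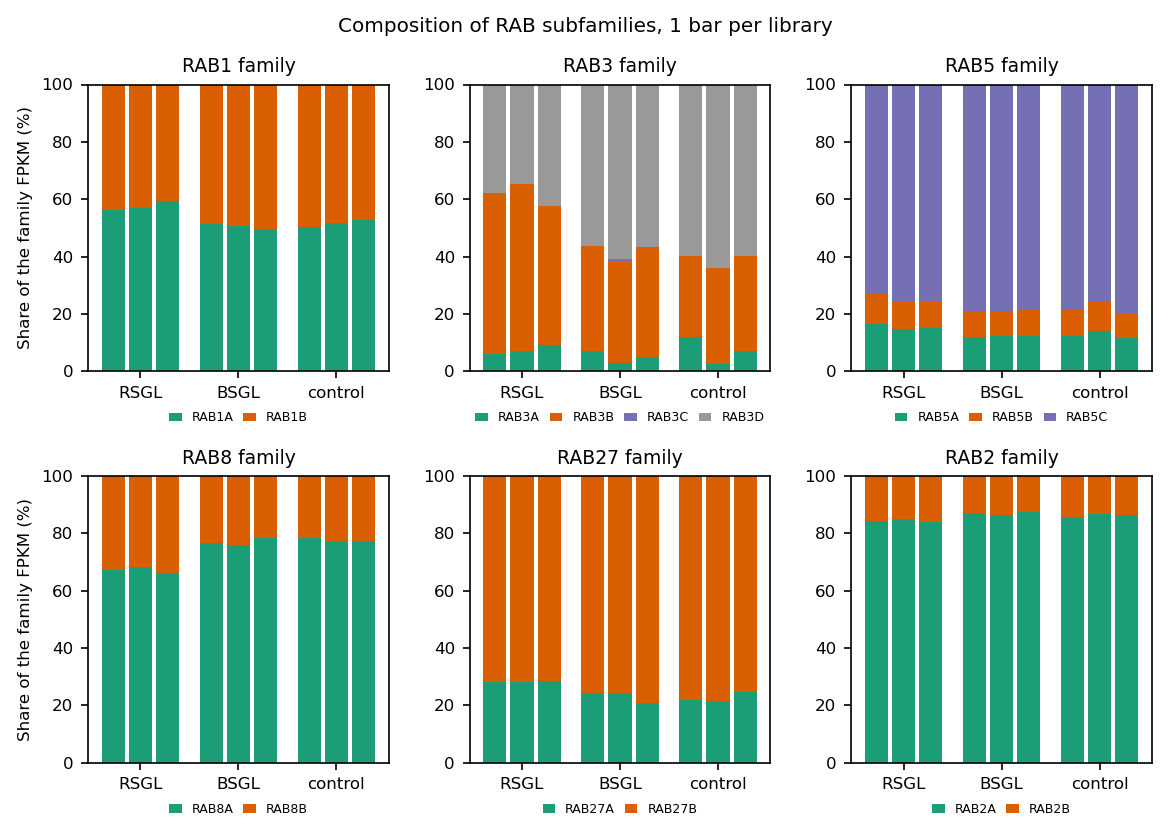
Share of each gene in the summed FPKM of its family (RAB1, RAB3, RAB5, RAB8, RAB27 and RAB2), with 1 stacked bar per library from RSGL on the left to control on the right. The RAB3B share of the RAB3 family averages 54.2% in the RSGL bars and 31.6% in the control bars, and the RAB8B share 32.8% and 22.4%.

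Under BSGL no RAB gene passed at the precision of 3 libraries a group. The log2 differences from control ran from -0.18 for RAB26 to 0.20 for RAB3B, with a median of 0.0073, beside 0.0054 for all genes tested, and the smallest limma adjusted p among RAB genes was 0.602. RAB3B, RAB29 and RAB26 had an unadjusted p under 0.05. RAB29 averaged 9.64 ± 0.556 FPKM under BSGL and 8.78 ± 0.516 FPKM in control (SD, n = 3 each), a log2 difference of 0.12 with a 95% interval of 0.01 to 0.24 (limma, adjusted p = 0.719). For 8 of the 45 genes the BSGL libraries did not overlap with those of control, 7 above and 1 below, beside 12.8% of all genes tested (7.16% above and 5.63% below). The widest 95% interval, that of RAB37, reached 0.28 to each side. These intervals are not adjusted for the number of genes, while the calls are. Differences larger than 0.28 in a low gene could therefore also have gone uncalled.

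At the matched dose and time, 14 RAB genes were higher and 11 lower under RSGL than under BSGL, or 55.6%, near the 54% of all genes. RSGL minus BSGL was 0.98 for RAB3B (limma, adjusted p = 1.81e-06), 1.01 for RAB29 and 0.53 for RAB23 (limma, adjusted p = 0.00017). In the other direction it was -0.43 for RAB26 (limma, adjusted p = 0.000554), -0.43 for RAB36 (limma, adjusted p = 0.000313) and -0.32 for RAB10 (limma, adjusted p = 3.46e-05). It was 0.75 for RAB39B and -0.70 for RAB37, which the filter kept only through the libraries where each is high. RAB13 did not pass, with a 95% interval for RSGL minus BSGL of -0.11 to 0.06, and neither did RAB2A, with one of -0.05 to 0.11. The libraries of the 2 compounds did not overlap for 31 RAB genes, 17 with RSGL above and 14 with RSGL below, beside 61.2% of all genes tested (29.8% above and 31.4% below). Against control the RSGL libraries did not overlap for 27, 16 above and 11 below, beside 61.2% of all genes tested (30.4% above and 30.8% below).

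The regulators of RAB proteins rose more often than they fell under RSGL. Of 8 lists with 157 entries, 136 genes were tested, and 55 rose, 17 fell and 64 did not pass, beside 27.2% of all genes called higher and 27.6% lower. Under BSGL 0 of the 136 passed. In RSGL libraries set against BSGL libraries, 45 of them were higher and 17 lower, beside 26.5% and 27.5% of all genes.

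In the cycle that prenylates RABs and shuttles them between membrane and cytosol, 8 genes were tested. Under RSGL 4 rose and 2 fell, beside 27.2% of all genes higher and 27.6% lower. The median log2 difference of the 8 was 0.17. RABGGTA, which did not pass, is listed on a scaffold outside the assembled chromosomes. It varied widely within groups, at 0.642, 2.73 and 0.0451 FPKM under BSGL and 1.84, 0.0778 and 0.0803 FPKM in control. Its lack of a call therefore says little. GDI2, a GDP dissociation inhibitor, averaged 113.5 ± 1.82 FPKM under RSGL, 138.9 ± 2.09 FPKM under BSGL and 134.0 ± 4.73 FPKM in control (SD, n = 3 each), and fell by 0.24 (limma, adjusted p = 0.000161). RABAC1, which releases RABs from these inhibitors at the Golgi, averaged 183.5 ± 8.09, 130.1 ± 4.25 and 122.6 ± 3.66 FPKM in the same order of groups and rose by 0.58 (limma, adjusted p = 1.72e-06). CHML, an escort protein that presents RABs for prenylation, averaged 6.73 ± 0.291 FPKM under RSGL, 9.98 ± 0.374 FPKM under BSGL and 10.0 ± 0.3003 FPKM in control and fell by 0.51 (limma, adjusted p = 8.4e-06), while its paralog CHM rose by 0.21 (limma, adjusted p = 0.0192).

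Of 29 exchange factors tested, 17 rose, 2 fell and 10 did not pass under RSGL, beside 27.2% of all genes higher and 27.6% lower, with a median of 0.21. RAB3IL1 and RAB3IP, which activate RAB8 proteins and bind RAB3A, rose by 0.94 (limma, adjusted p = 1.24e-07) and 0.60 (limma, adjusted p = 1.1e-05). RAB3IL1 had 7.25, 7.29 and 7.31 FPKM under RSGL, 3.48, 3.63 and 3.74 FPKM under BSGL and 3.25, 3.20 and 3.48 FPKM in control. ANKRD27, an exchange factor for RAB21 that also binds RAB32 and RAB38, averaged 20.5 ± 0.609 FPKM under RSGL, 11.5 ± 1.26 FPKM under BSGL and 12.3 ± 0.0985 FPKM in control. It rose by 0.70 (limma, adjusted p = 9.3e-06), and DENND4C, an exchange factor for RAB10, by 0.62 (limma, adjusted p = 2.98e-06).

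HPS1 and HPS4, which together load RAB32 and RAB38, rose by 0.22 (limma, adjusted p = 0.00665) and 0.39 (limma, adjusted p = 0.000294). Of 13 TRAPP subunits, which form exchange factors for RAB1 and RAB11, 2 rose and 11 did not pass, beside 27.2% of all genes higher and 27.6% lower. TRAPPC9 rose by 0.28 (limma, adjusted p = 0.0012) and TRAPPC13 by 0.15 (limma, adjusted p = 0.0491). Of 30 GTPase-activating proteins, 14 rose, 3 fell and 13 did not pass, beside the same shares of all genes, with a median of 0.14. TBC1D16 rose by 0.62 (limma, adjusted p = 3.22e-05), TBC1D10A, which acts on RAB27 and RAB35, by 0.54 (limma, adjusted p = 6.34e-05) and EVI5L by 0.49 (limma, adjusted p = 0.00187). TBC1D9B and the TRAPP subunit TRAPPC12, which did not pass, are listed on scaffolds outside the assembled chromosomes. TBC1D9B had 1.17, 1.91 and 4.35 FPKM under RSGL, so its lack of a call also says little.

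Among 37 effectors, 13 rose, 7 fell and 17 did not pass under RSGL, with a median of 0.04. The share called was near the 54.8% of all genes (27.2% higher and 27.6% lower). OPTN, an autophagy receptor that binds RAB8A, had 29.6, 27.7 and 27.2 FPKM under RSGL, 18.1, 18.0 and 17.1 FPKM under BSGL and 16.5, 16.1 and 16.5 FPKM in control, and rose by 0.75 (limma, adjusted p = 2.65e-07). SYTL5, a RAB27 effector of secretion, averaged 0.395 ± 0.0238 FPKM under RSGL, 1.11 ± 0.135 FPKM under BSGL and 1.25 ± 0.108 FPKM in control with a log2 difference from control of -0.69 (limma, adjusted p = 6.54e-05). SYTL5 passed the filter through its BSGL and control libraries alone. RPH3AL, which binds RAB3 and RAB27 proteins, rose by 0.60 (limma, adjusted p = 0.00648), and its SD of 0.704 FPKM under RSGL, at a mean of 3.66 FPKM, was wide.

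Of the 9 subunits of the exocyst, a tether that RABs recruit, 3 rose, 1 fell and 5 did not pass, beside 54.8% of all genes called, with all 4 changes within 0.15 of 0: EXOC5 fell by 0.15 (limma, adjusted p = 0.0165), EXOC4 rose by 0.15 (limma, adjusted p = 0.021) and EXOC2 by 0.14 (limma, adjusted p = 0.0338). Of 7 tested subunits of HOPS and CORVET, the tethers of RAB7A and RAB5, 1 rose and 6 did not pass, beside the same 54.8% of all genes called (27.2% higher and 27.6% lower). The 1 that rose was VPS18, by 0.29 (limma, adjusted p = 0.00443).

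The enzymes that phosphorylate RABs and reverse it were at low levels. All 3 tested genes changed under RSGL, beside 54.8% of all genes called. LRRK2, which phosphorylates RAB8A, RAB10 and RAB29, had 1.02, 0.864 and 0.927 FPKM under RSGL, 1.59, 1.56 and 1.54 FPKM under BSGL and 1.86, 1.55 and 1.46 FPKM in control, and fell by 0.44 (limma, adjusted p = 0.000751). LRRK1, a kinase of RAB7A, fell by 0.23 (limma, adjusted p = 0.00698). PPM1H, a phosphatase that reverses the LRRK2 mark, rose by 0.44 (limma, adjusted p = 0.00103), to 3.20 ± 0.231 FPKM under RSGL, against 2.24 ± 0.209 FPKM under BSGL and 2.10 ± 0.257 FPKM in control (SD, n = 3 each).

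The 17 RAB genes below the filter were low in all groups. RAB4B and RAB19 were listed at 0 in every library, and the span of RAB4B lies within those of 2 readthrough genes on the same strand, so its listed 0 is uncertain. Just below the filter were RAB39A, which reached 1 FPKM in 2 libraries and at most 1.21 FPKM, RAB3A with 1 library and 1.12 FPKM, and RAB28 with 1 library and 1.02 FPKM. Of the genes that passed, 42 reached 1 FPKM in all 9 libraries. RAB39A, the paralog of RAB39B, had 0.924, 1.14 and 1.21 FPKM under RSGL, 0.618, 0.405 and 0.557 FPKM under BSGL and 0.615, 0.603 and 0.651 FPKM in control. RAB7B, which acts between late endosomes and the Golgi, had 0.0957, 0.121 and 0.119 FPKM under RSGL, 0.230, 0.407 and 0.294 FPKM under BSGL and 0.479, 0.331 and 0.356 FPKM in control. Both lay outside the range of control under RSGL, RAB39A above and RAB7B below.

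Where RAB genes share their span with a gene on the other strand, reads of both cannot be told apart without the strand setting. Of the 45 tested genes, 16 had such an overlap, and in 6 of them the other gene reached 1 FPKM. These are RAB1A, RAB1B and RAB4A, which carry calls under RSGL, and RAB5B, RAB11B and RAB14, which did not pass. RAB1A overlaps CEP68, at up to 3.05 FPKM, over 155 bases, RAB1B overlaps the lncRNA LOC107984340, at up to 1.002 FPKM, over 5336 bases, and RAB4A overlaps the lncRNA LOC105373159, at up to 1.60 FPKM, over 181 bases. RAB3B overlaps a pseudogene listed at 0 in every library. On the same strand, 8 tested genes had an overlap, which a strand setting would not resolve. Among those with calls under RSGL, RAB10 shares 47559 bases with the lncRNA LOC105374333, at up to 0.790 FPKM. RAB34 shares 1898 bases with NARR, RAB4A 1123 with SPHAR and RAB27B 984 with a pseudogene, and these 3 are listed at 0 in every library.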

How the data were processed

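RNA-seq was made from total RNA with TRIzol and a NEBNext Ultra kit, per the labels' protocols. The deposited table holds FPKM per gene, computed by the authors, with gene lengths and positions, per the file headers. The submitters' processing notes list HISAT2 2.0.5 and 2.0, featureCounts 1.5.0-p3 and DESeq2 1.16.1 without roles, and the sequence accessions are those of GRCh38. The strand setting of counting is not known from these sources. Control columns carry the cell line and a number only and were matched to the control titles.

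Multiplying FPKM by gene length gave whole fragments for 100% of values under 300 fragments (within 0.01), so depth is known. The libraries held 92.3 to 93.9% of their scaling totals. Values were tested as log2(FPKM + 1), which understates changes of low genes, for genes at 1 FPKM or more in at least 3 of 9 libraries. The linear model was that of limma 3.58.1 (R 4.3.3, statmod 1.5.0), with the trend and robust options, on all 9 libraries with 1 term per group, and Benjamini-Hochberg adjustment over all 12775 genes. The fit was tested on simulated data. Figures and tables used Python 3.11.15, pandas 2.3.3, numpy 2.4.6 and matplotlib 3.10.9.

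RAB genes were named as the 10 largest rises and 10 largest falls among those called and the 5 highest in control, others to complete a compartment or paralog family. Of regulators, effectors and tethers, the 3 largest called changes per list were named, plus paralogs and partners chosen after their values were seen. Some genes of these lists are counted but not reported here by name. The compartment groups and lists come from general knowledge, and some RABs act at several sites. The members and lists were chosen with earlier results of these data known. The alternatives changed the pseudocount, filter, scaling, model options, genes and libraries included, added a replicate block, and used voom on the recovered fragments. Replicate numbers were tested for pairing and did not pair the libraries. Promoter windows came from RefSeq. Protein sequences were not used here.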

Additional observations from a re-analysis of the deposited data

How the results depend on the processing

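The counts of RAB genes called stayed within 1.5 times under all 21 alternatives: 12 to 15 higher and 10 to 12 lower for RSGL against control, 12 to 16 and 10 to 12 for RSGL against BSGL, and 0 for BSGL against control. The medians were less stable. For BSGL against control the median of 0.0073 ran from -0.0168 to 0.0080 over the settings that kept all libraries and from -0.0075 to 0.0229 with 1 library left out, so it has no settled sign. For RSGL against control the median of 0.05 became 0.0346 without a filter and 0.0155 with scaling to a common sum, and ran from 0.0255 to 0.0759 with 1 library left out. For RSGL against BSGL the median of 0.04 became 0.0236 without a filter, 0.0730 with quantile scaling and 0.0582 with voom, and ran from 0.0235 to 0.0612 with 1 library left out. The cause was not tested. Of 2826 values of single genes, 2789 kept their call or lack of one, 22 lost the call and 15 gained it. In 0 of them did the sign change where either fit made a call. Sign changes of values called in neither fit are counted among the 2789. In RSGL against BSGL, RAB6B lost its call without BSGL replicate 1 or 3 or RSGL replicate 2 (adjusted p of 0.0716, 0.0784 and 0.0943), and RAB4A without a filter (0.0707), with voom (0.0557) and in 5 other fits, and without a filter RAB1A and RAB4A lost theirs against control (0.0614 and 0.0616). Without a filter, the low genes RAB39A, RAB7B and RAB33A were also called for RSGL against control (limma adjusted p of 0.0103, 0.00969 and 0.0423), and RAB33A overlaps AIFM1 on the other strand over 36526 bases. With scaling to a common sum the median of all genes for RSGL against control was -0.0337, beside -0.00085 as reported. Of 9 pairs of libraries with the same number, 1 deviated together with a correlation over 0.1 (range -0.21 to 0.12), so the numbers name libraries only. With the replicate block the calls were again 14 higher and 11 lower for RSGL against control, and 0 for BSGL. Depth limits genes near 1 FPKM: the lowest library of a tested RAB gene held 24 fragments.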
